A study of Mus musculus with 223 samples.

Results

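Transcription factors associated with cortical interneurons (INs) of the caudal ganglionic eminence (CGE) were followed in single cells: Prox1, Nr2f1, Nr2f2, Npas1, Npas3 and Maf. They were chosen by name, and all 6 were found among the 43629 genes counted. Htr3a-GFP+ cells were sorted from mouse cortex, in which a GFP reporter under Htr3a regulatory sequences marks INs that carry the ionotropic serotonin receptor, and the cells were sequenced one by one. They comprised 82 at embryonic day E18, 66 at postnatal day P2 and 75 at P5. At P2 there were 22 type 1, 31 type 2 and 13 type 3 INs, and at P5 34, 19 and 22, by the deposited type labels, while E18 cells carry no type. All cells came from the same reporter line, on a C57BL/6 background, with no treatment and from both sexes. Cells of an age came from 4 to 5 pooled embryos or pups and were captured on chips, 1 for P2 and 2 for each other age. E18 and P2 cells were dissociated at 37 °C but P5 cells at room temperature. Cells are not tied to animals, so a group has no replicate, no test between groups was made, and the intervals given are exact 95% intervals that cover counting error only. Where no cell was counted, the share that 3 cells would make is given as the limit. Age, animals and dissociation cannot be told apart.

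The ganglionic eminences are the embryonic sources of forebrain INs. The CGE gives rise to most INs that carry Htr3a, which include the reelin and VIP classes. The study proposes that a part of the Htr3a-GFP+ INs, those with MEIS2, arises outside the CGE at the border of pallium and subpallium. The medial eminence (MGE) gives rise to somatostatin and parvalbumin INs under Nkx2-1 and Lhx6. Prox1 is a homeodomain factor kept by migrating and maturing CGE-derived INs. Nr2f1 and Nr2f2 (COUP-TFI and COUP-TFII) are closely related orphan nuclear receptors, Nr2f2 being the more typical of the CGE. Npas1 and Npas3 are basic helix-loop-helix PAS factors that pair with an ARNT partner, and Maf is a bZIP factor that is also known from MGE-derived INs.

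Mapped read pairs per cell ranged from 3707601 to 15840130 with a median of 9463033, so that 1 read pair was worth 0.0631 to 0.270 RPM, where RPM is the number of pairs on a gene scaled to 1000000 mapped pairs. Type 3 INs were the shallowest, with medians of 6483871 pairs at P2 and 7879972 at P5, and had a median of 1437 and 2101.5 genes above 10 RPM against 2482 and 2738 in type 2 and 1834 and 2258 in type 1. At least 1 of 7 IN transcripts (Gad1, Gad2, Dlx1, Dlx2, Dlx5, Dlx6, Slc32a1) was above 10 RPM in all but 8 of the cells. At least 2 transcripts of another cell type were above 10 RPM in 14 of 82 E18 cells, all 14 by the excitatory neuron list, and in 1, 1 and 0 cells of types 1, 2 and 3 at P2 and 2, 5 and 1 cells at P5. Endothelium also uses Nr2f2 and Prox1. No cell had 2 endothelial transcripts above 10 RPM, 6 of 22 P5 type 3 INs and 1 or 2 cells of each other group had 1, and the 7 transcripts of that list summed to 3.40 to 8.35 pooled RPM per group, with the highest sum in P5 type 3. Their part in the levels of both factors was not tested. All P2 libraries carry the same number in their names, here called set A, and E18 and P5 libraries carry others, here sets B, C and D. What the number marks, and how it relates to the chips, is not stated, and at P2 it cannot be told apart from age.

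On GRCm38, Prox1 (ENSMUSG00000010175) occupies chr1:190118035-190170714 on the minus strand with 8390 bases of merged exon. Nr2f1 (ENSMUSG00000069171) occupies chr13:78188973-78199757 on the minus strand with 5093 exon bases, and Nr2f2 (ENSMUSG00000030551) chr7:70351944-70366735 on the minus strand with 8625. Npas1 (ENSMUSG00000001988) occupies chr7:16455721-16477728 on the minus strand with 3009 exon bases. Npas3 (ENSMUSG00000021010) spans 823499 bases at chr12:53248677-54072175 on the plus strand, of which 6007 are exon, and Maf (ENSMUSG00000055435) lies at chr8:115682942-115707794 on the minus strand with 8241. Transcripts on the opposite strand shared 1.59% of the exon bases of Prox1, 2.42% of Nr2f1, 7.46% of Nr2f2, 1.38% of Npas3 and 5.34% of Maf, and none of Npas1. Whether the counting used strand is not given in the sources used here, so reads within these stretches could belong to either gene.

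Because Nr2f1 and Nr2f2 are paralogs and reads were 50 bases long, the stretch in which their transcripts are most alike is shown. It is a 150-base window of the first exon of both, coding bases 232 to 381 of Nr2f1 (chr13:78198193-78198342, minus strand) and 220 to 369 of Nr2f2 (chr7:70359961-70360110, minus strand), read 5′ to 3′ from GENCODE vM21 transcripts, with capitals at the 15 bases that differ.
Nr2f1: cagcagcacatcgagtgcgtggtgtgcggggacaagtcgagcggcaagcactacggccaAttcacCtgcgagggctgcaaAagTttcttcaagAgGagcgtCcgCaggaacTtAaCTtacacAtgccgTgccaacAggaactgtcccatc
Nr2f2: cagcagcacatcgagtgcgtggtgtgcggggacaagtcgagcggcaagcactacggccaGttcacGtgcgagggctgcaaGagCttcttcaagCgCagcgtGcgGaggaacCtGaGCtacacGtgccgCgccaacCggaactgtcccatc
The longest run without a difference was 59 bases, and only 10 of the 5090 50-base words of the Nr2f1 transcript occurred in that of Nr2f2.

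The PAS genes were further apart. Their most alike 150-base window crosses exons 4 to 6 of both genes, coding bases 430 to 579 of Npas1 (chr7:16463360-16465363 with its introns, minus strand) and 481 to 630 of Npas3 (chr12:53640534-53947219 with its introns, plus strand), again with capitals at the bases that differ.
Npas1: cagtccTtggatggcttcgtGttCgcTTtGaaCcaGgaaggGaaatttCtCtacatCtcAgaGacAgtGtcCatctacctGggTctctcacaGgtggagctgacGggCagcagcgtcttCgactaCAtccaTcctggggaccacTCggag
Npas3: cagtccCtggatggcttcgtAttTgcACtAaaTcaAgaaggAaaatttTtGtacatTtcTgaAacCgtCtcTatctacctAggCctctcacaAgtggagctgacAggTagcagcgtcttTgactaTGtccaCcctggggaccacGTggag
They differed at 28 bases with no identical run over 13, and 0 of 3142 50-base words of Npas1 occurred in Npas3.

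Per kilobase of exon, the scale on which genes can be set side by side, Maf had the highest level over all cells with 34.5 RPM per kb. Npas3 followed with 30.4, Nr2f2 with 17.2, Nr2f1 with 15.6, Prox1 with 10.1 and Npas1 with 5.40 RPM per kb. This order did not hold in every group. At E18 Maf (45.9 RPM per kb) and Npas3 (34.7) stood above Nr2f1 (14.2), Nr2f2 (11.3), Npas1 (7.02) and Prox1 (5.30), whereas in type 2 INs at P5 Maf (51.7) was followed by Prox1 (39.4). In type 3 INs Npas3 was highest, with 63.4 RPM per kb at P2 (Maf 53.5) and 53.2 at P5 (Nr2f2 31.3, Maf 25.6). In type 1 INs Maf was lower (3.93 at P2 and 4.39 at P5) than Nr2f1 (16.2 and 7.72) and Npas3 (15.6 and 7.20), and than Prox1 at P5 (8.21), of whose reads 1 cell held 54.3%. All levels below are pooled RPM (summed counts over summed mapped pairs) or RPM of single cells, and a cell is said to have a factor when it is above 10 RPM, the threshold the study used to select genes.

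**Figure D1:**
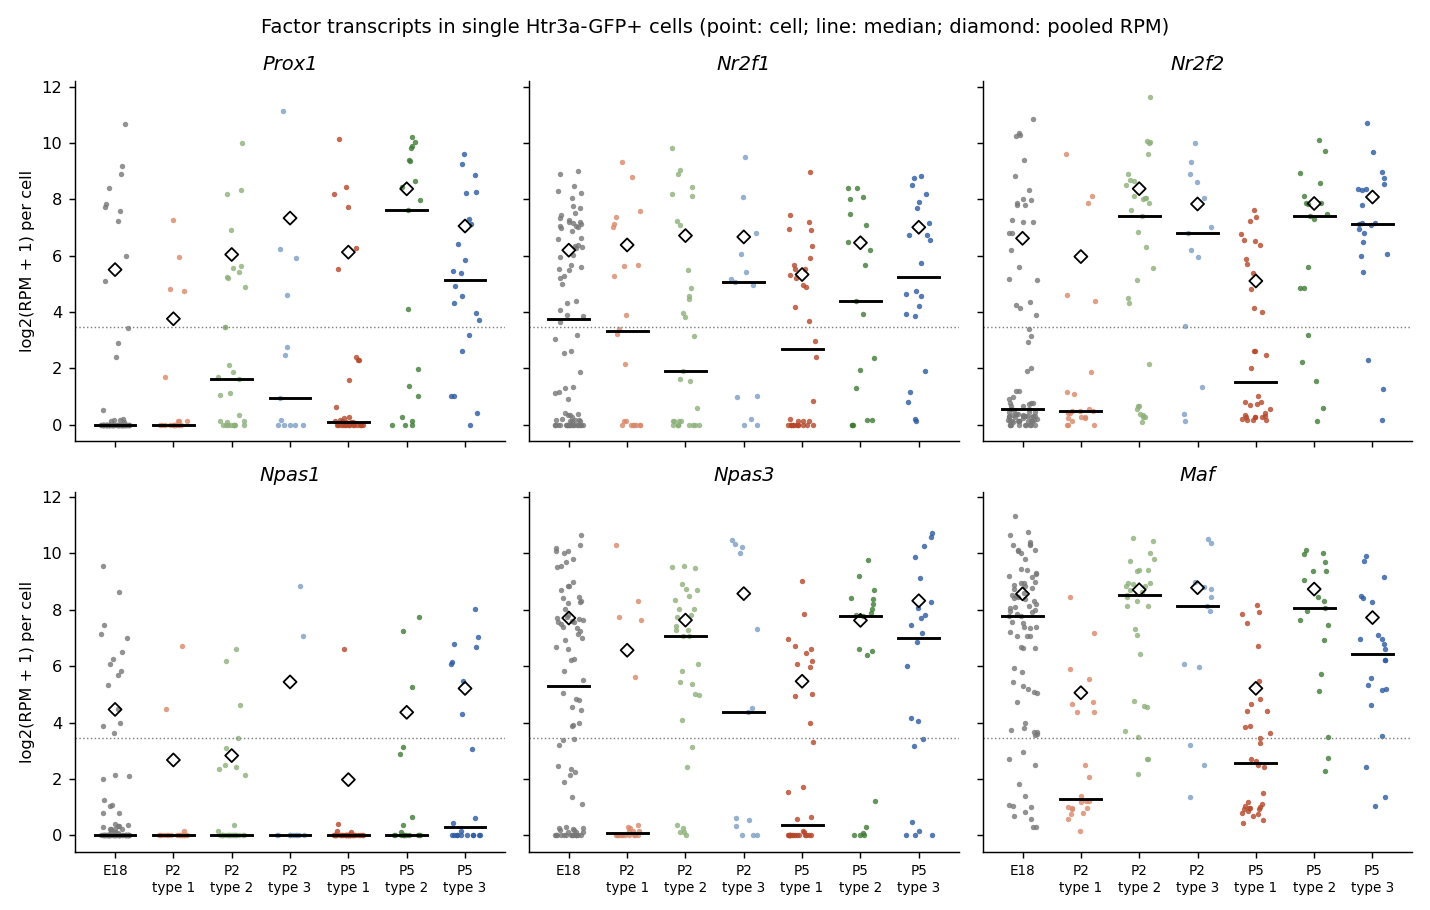
Level of each factor in single Htr3a-GFP+ cells, as log2(RPM + 1), by group. Points are cells, lines are medians over cells, diamonds are pooled RPM and the dotted line is 10 RPM. Most pooled levels lie above the medians, with few cells holding most reads, as in the P2 type 3 Prox1 column, where 1 cell stands at 2253 RPM.

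Prox1 was the factor with the fewest cells at E18 and, by pooled level, the one furthest above E18 in P5 type 2. At E18 the pooled level was 44.5 RPM (44.02 to 44.96), single cells ranged from 0 to 1633 RPM with a median of 0, and 10 of 82 cells had it (12.2%, 6.01 to 21.3%). At P2 the pooled level was 12.6 RPM in type 1 (0 to 151.4 RPM, median 0, 4 of 22 cells), 64.97 in type 2 (0 to 1024 RPM, median 2.08, 12 of 31 cells) and 160.5 in type 3 (0 to 2253 RPM, median 0.932, 4 of 13 cells). The type 3 value rested on 1 cell with 89.8% of the reads, without which it was 17.4 RPM. Without its highest cell the level was 26.02 RPM at E18, 5.89 in P2 type 1, 34.4 in P2 type 2 and 32.6 in P5 type 1. At P5 it was 68.9 RPM in type 1 (0 to 1136 RPM, median 0.0789, 6 of 34 cells), 330.6 in type 2 (0 to 1199 RPM, median 198.1, 11 of 19 cells) and 131.9 in type 3 (0 to 775 RPM, median 34.9, 16 of 22 cells). The share of cells ran from 12.2% at E18 to 72.7% in P5 type 3. Of the 21 pairs of groups, 5 had shares with intervals apart: P5 type 3 above type 1 of both ages, and P5 type 3, P5 type 2 and P2 type 2 above E18.

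Nr2f1 had no pair of groups with shares apart. Its pooled level was 72.4 RPM at E18 (cells 0 to 511 RPM, median 12.5), 82.5, 103.9 and 100.7 RPM in types 1, 2 and 3 at P2 (highest cells 633, 912 and 721 RPM, medians 8.99, 2.72 and 32.5) and 39.3, 87.1 and 127.9 RPM at P5 (highest cells 498, 341 and 454 RPM, medians 5.53, 20.1 and 39.3). It was present above the threshold in 42 of 82 E18 cells. Of types 1, 2 and 3, 10 of 22, 14 of 31 and 8 of 13 P2 cells and 16 of 34, 11 of 19 and 17 of 22 P5 cells had it. Without its highest cell, P2 type 3 stood at 45.6 RPM. Shares spanned 45.2% to 77.3%, and the intervals overlapped for all 21 pairs of groups.

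Nr2f2 separated the groups most often, with intervals apart for 9 of 21 pairs. It was 97.2 RPM at E18, where the median cell had 0.475 RPM, the highest 1867 RPM and 25 of 82 cells (30.5%, 20.8 to 41.6%) had it. At P2 it was 61.7 RPM in type 1 (median 0.415, highest 775, 5 of 22 cells), 332 in type 2 (median 167.05, highest 3139.7, 22 of 31) and 227 in type 3 (median 112.1, highest 1033, 10 of 13). At P5 it was 33.4 RPM in type 1 (median 2.06, highest 197.7, 13 of 34), 230.4 in type 2 (median 170.7, highest 1099.9, 14 of 19) and 270.3 in type 3 (median 139.8, highest 1673, 19 of 22). Without its highest cell, P2 type 1 stood at 27.3 RPM. Types 2 and 3 of both ages lay above E18, and above P2 type 1, with intervals apart, while neighbours in the order of shares overlapped. At least 1 read pair of Nr2f2 was present in all but 12 cells, and the cells with reads but at or below 10 RPM had a median of 0.323 RPM.

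Npas1 had the lowest level per kb over all cells, although Prox1 was lower at E18 and in P2 type 1. Its pooled level was 21.1 RPM at E18 (0 to 744 RPM, 15 of 82 cells), 5.38, 6.11 and 42.5 RPM in types 1, 2 and 3 at P2 (2, 3 and 2 cells) and 2.94, 19.6 and 36.1 RPM at P5 (1, 3 and 8 cells). The median cell was at 0 in every group except P5 type 3, where it was 0.236 RPM. The E18 level of Npas1 differed by library set, with 31.1 RPM in set B (12 of 48 cells), which held the cell at 744 RPM. It was 10.6 RPM in set C (2 of 9 cells) and 5.18 RPM in set D (1 of 25 cells). A single cell held 99.4% of the Npas1 reads of P5 type 1 (95.9 RPM) and 84.98% of those of P2 type 3 (464 RPM). Without the highest cell of a group, Npas1 had 12.7 RPM in E18 cells, 1.02, 3.67 and 6.92 RPM in P2 types 1 to 3, and 0.0179 and 8.61 RPM in P5 types 1 and 2. P5 type 3, with 36.4% of cells (17.2 to 59.3%), and P5 type 1, with 2.94% (0.0744 to 15.3%), were the only pair with intervals apart.

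Npas3 was 208.5 RPM at E18 (0 to 1615 RPM, median 38.6, 49 of 82 cells). At P2 it was 93.8 RPM in type 1 (median 0.0509, highest 1257, 5 of 22 cells), 197.98 in type 2 (median 133.3, highest 756, 24 of 31) and 381 in type 3 (median 19.9, highest 1431, 7 of 13). At P5 it was 43.2 RPM in type 1 (median 0.316, highest 517, 12 of 34), 196.7 in type 2 (median 221.1, highest 868, 13 of 19) and 319 in type 3 (median 128.8, highest 1675, 15 of 22). Without its highest cell, type 1 stood at 37.8 RPM at P2 and 24.2 RPM at P5. Type 3 had the highest pooled Npas3 at both ages, although its share of cells was not above that of type 2. In the Npas3+ cells of P2 type 3 the median was 1023 RPM, against 193.3 RPM in those of type 2.

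Maf was the only factor with at least 1 read pair in every cell, which 273 of 25985 genes with any read had (1.05%). It was 379 RPM at E18 (0.214 to 2602 RPM, median 219.5, 69 of 82 cells), 32.3, 419 and 441 RPM in types 1, 2 and 3 at P2 (medians 1.47, 370.5 and 281 RPM) and 36.2, 426 and 210.9 RPM at P5 (medians 4.95, 269 and 85.6 RPM). At P2 the share of cells past the threshold was 36.4, 90.3 and 76.9% for types 1 to 3, and at P5 it was 41.2, 89.5 and 86.4%. The 58 cells at or below 10 RPM had a median of 1.12 RPM. The E18 level differed by library set, with 506 RPM in set B, 310.9 in C and 151.8 in D, and P2 type 1 stood at 16.9 RPM without its highest cell. For 8 of 21 pairs of groups the intervals lay apart, and in each of these type 1 of either age was the lower group.

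**Figure D2:**
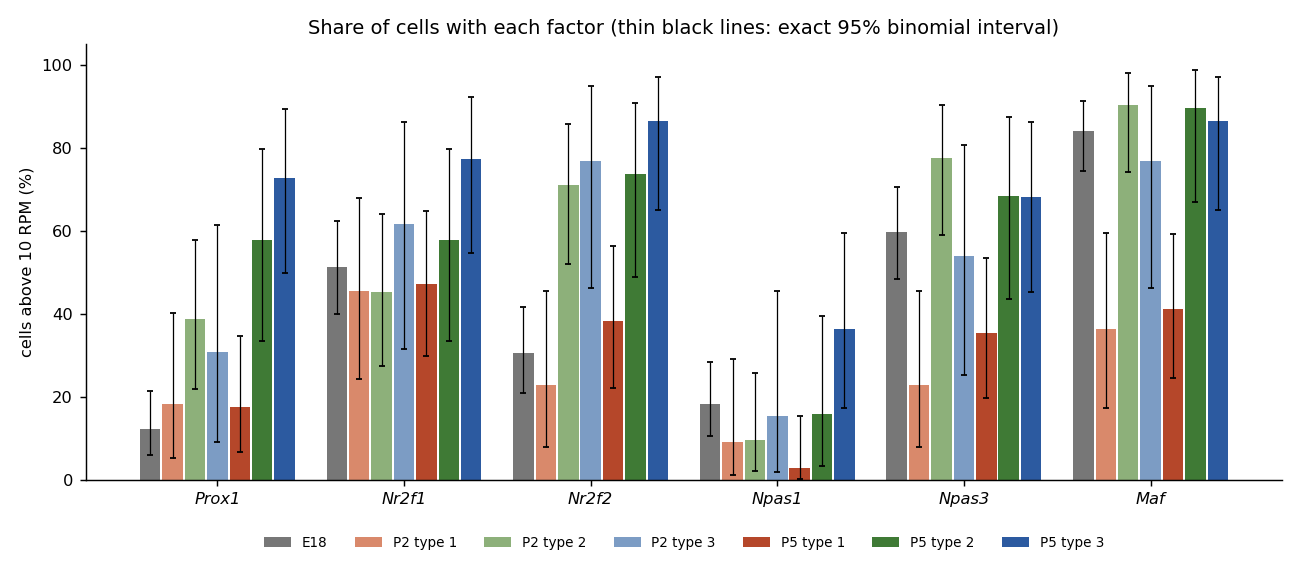
Share of cells above 10 RPM (%) for each factor and group, with exact 95% binomial intervals. Nr2f1 bars overlap throughout, from 45.2% to 77.3%, while type 1 INs have low bars for Nr2f2, Npas3 and Maf.

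The median number of factors per cell was lower in type 1 than in types 2 and 3. The median was 1 of 6 in type 1 INs at P2 and 2 at P5, against 3 in both other types at P2 and 4 and 5 in types 2 and 3 at P5. E18 cells had a median of 2.5. At P2 at least 4 factors were found in 3 of 22 type 1 INs (13.6%, 2.91 to 34.9%), 15 of 31 type 2 (48.4%, 30.2 to 66.9%) and 6 of 13 type 3 (46.2%, 19.2 to 74.9%). At P5 they were found in 4 of 34 type 1 (11.8%, 3.30 to 27.5%), 10 of 19 type 2 (52.6%, 28.9 to 75.6%) and 16 of 22 type 3 (72.7%, 49.8 to 89.3%). At E18 the share was 20 of 82 (24.4%, 15.6 to 35.1%). The intervals of type 1 and the other types lay apart at P5 and overlapped at P2. No cell of types 2 and 3 lacked all 6 factors at either age, which allows shares of up to 9.68% and 23.1% at P2 and 15.8% and 13.6% at P5, whereas 6 type 1 INs had none at P2, that is 27.3%, and 3 had none at P5, that is 8.82%.

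The library sets moved with this number at P5. All 4 type 1 INs with at least 4 factors were among the 12 cells of set D, with 0 of 11 in set B and 0 of 11 in set C (up to 27.3% in each). In set D the counts were 4 of 12, 9 of 14 and 14 of 17 cells for types 1, 2 and 3, that is 33.3% (9.92 to 65.1%), 64.3% (35.1 to 87.2%) and 82.4% (56.6 to 96.2%). The order was that of all sets. The intervals overlapped, and with 12 to 17 cells per type they cannot show whether the separation of type 1 was kept or lost within set D. Sets B and C held 2 and 3 cells each of types 2 and 3. The part of the sets in the result was not tested beyond these counts.

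**Figure D3:**
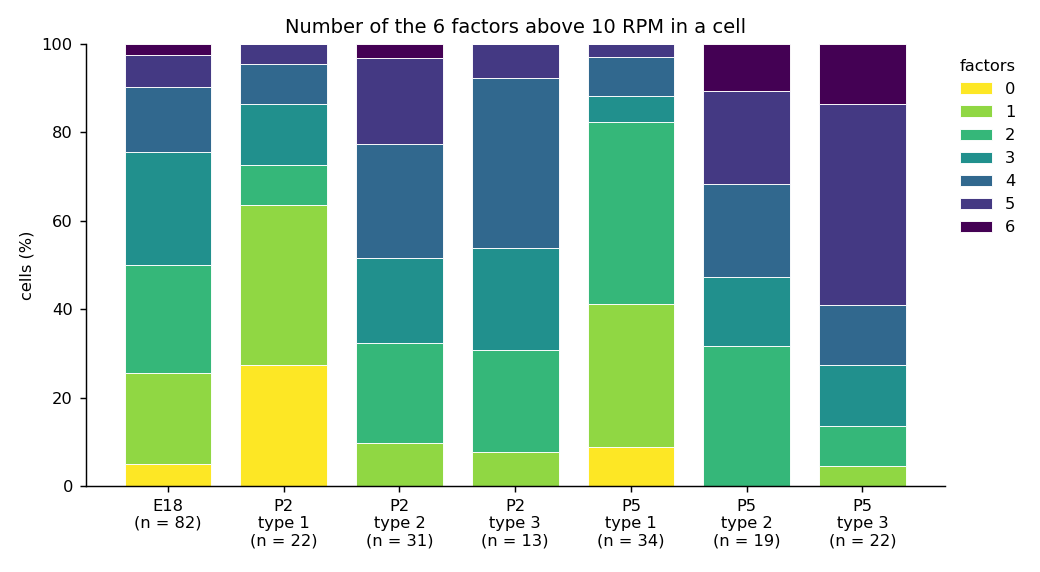
Share of cells (%) by the number of the 6 factors above 10 RPM, with the number of cells per group under each bar. Type 1 INs concentrate at 0 to 2 factors, and 13 of 22 P5 type 3 INs have 5 or 6.

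The combinations were diverse, with 25 different ones among the 82 E18 cells. The most frequent at E18 were Maf alone (13 cells), Npas3 with Maf (11) and Nr2f1, Npas3 and Maf (10). Prox1, Nr2f1, Nr2f2, Npas3 and Maf together were the most frequent combination in P2 type 2 (5 of 31 INs) and P5 type 3 (5 of 22). In P5 type 2 this combination and Nr2f2 with Maf had 3 of 19 INs each, and in P2 type 3 it was held by 1 of 13. All 6 factors together were found in 2 E18 cells, 1 P2 type 2 cell, 2 P5 type 2 cells and 3 P5 type 3 cells. In P2 type 1, the most frequent states were no factor (6 cells) and Nr2f1 alone (4 cells).

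Each of the 15 pairs of factors was compared by the share of cells with one factor among those with and without the other. Within a postnatal type no pair had intervals apart. Over all P2 cells Npas3 went with Nr2f2 (27 of 37 cells with Nr2f2 and 9 of 29 without it) and with Maf (31 of 46 against 5 of 20). Over all P5 cells Prox1 went with Npas3 (24 of 40 against 9 of 35) and with Maf (28 of 50 against 5 of 25), and Npas3 with Npas1 (11 of 12 against 29 of 63). These pools mix the types, which differ in the factors. Of the PAS pair, all 11 Npas1+ INs of types 2 and 3 at P5 also had Npas3 (71.5 to 100%), against 3 of 5 at P2 and 12 of 15 at E18. Among cells without Npas1, Npas3 was found in 17 of 30 of these INs at P5, 28 of 39 at P2 and 37 of 67 E18 cells.

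At E18 the 2 COUP-TF genes were found together. Of the 15 pairs, only Nr2f1 and Nr2f2 had intervals apart: Nr2f1 was above 10 RPM in 22 of 25 cells with Nr2f2 (88%, 68.8 to 97.5%) and in 20 of 57 cells without it (35.1%, 22.9 to 48.9%). Cells with and without Nr2f2 had like numbers of genes above 10 RPM, with medians of 2507 and 2484. Without the 14 cells that had excitatory transcripts the counts were 19 of 20 and 16 of 48. Within set B they were 13 of 15 and 13 of 33, with intervals apart, and within set D 7 of 8 and 5 of 17, with intervals that overlapped. In postnatal type 2 and 3 INs the same pair stood at 12 of 22 and 2 of 9 cells in P2 type 2, at 7 of 10 and 1 of 3 in P2 type 3, at 8 of 14 and 3 of 5 in P5 type 2 and at 14 of 19 and 3 of 3 in P5 type 3.

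The E18 cells also differed by lineage transcripts, and for Maf these did not follow the CGE label of the gene set. At least 2 of 7 MGE transcripts (Nkx2-1, Lhx6, Lhx8, Sox6, Satb1, Sst, Pvalb) were above 10 RPM in 51 of 82 E18 cells, against 0, 8 and 3 cells of types 1, 2 and 3 at P2 and 0 cells of any type at P5 (up to 8.82, 15.8 and 13.6%). Nr2f2 was found in 7 of these 51 cells (13.7%, 5.70 to 26.3%) and in 18 of the other 31 (58.1%, 39.1 to 75.5%), with pooled levels of 18.5 and 227 RPM. Maf stood the other way, with 48 of 51 (94.1%, 83.8 to 98.8%) and 21 of 31 (67.7%, 48.6 to 83.3%), intervals that were narrowly apart, and pooled levels of 496 and 184.99 RPM. Prox1 had 10.6 and 100.3 RPM, Npas1 11.0 and 37.8 RPM, Npas3 138.4 and 324 RPM and Nr2f1 65.8 and 83.1 RPM, with shares whose intervals overlapped. Without the highest cell of each side the Prox1 levels were 5.74 and 52.2 RPM and those of Npas1 9.11 and 15.7 RPM. The library sets moved with both splits. The MGE transcripts were found in 3 of 15 cells with Nr2f2 and 28 of 33 without it in set B, and in 4 of 8 and 12 of 17 in set D, where the intervals overlapped. By Maf they were found in 31 of 42 cells with it and 0 of 6 without (up to 50%) in set B, and in 14 of 19 and 2 of 6 in set D, where the intervals overlapped as well.

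By single transcripts, Lhx6, the LIM homeodomain factor of MGE-derived INs, was above 10 RPM in 6 of 25 E18 cells with Nr2f2 (24%, 9.36 to 45.1%) and in 34 of 57 without it (59.6%, 45.8 to 72.4%). It was in 39 of 69 cells with Maf (56.5%, 44.04 to 68.4%) and in 1 of 13 without Maf (7.69%, 0.195 to 36.03%). Sp8, a zinc finger factor of CGE and dorsal lateral eminence INs, was in 12 of 25 cells with Nr2f2 (48%, 27.8 to 68.7%) and in 8 of 57 without it (14.0%, 6.26 to 25.8%). These 3 were the only ones with intervals apart among 42 such comparisons at E18. Without the 14 cells with excitatory transcripts Lhx6 stood at 5 of 20 against 33 of 48 by Nr2f2 and at 38 of 61 against 0 of 7 (up to 42.9%) by Maf, and Sp8 at 10 of 20 against 7 of 48, where the intervals overlapped slightly. In set D alone, with 25 cells, Lhx6 was in 2 of 8 cells with Nr2f2 and 6 of 17 without, so that the gap rested mostly on set B (4 of 15 against 25 of 33). Lhx6 by Maf likewise had intervals apart in set B (29 of 42 against 0 of 6) and not in set D (7 of 19 against 1 of 6). Sp8 by Nr2f2 had them apart in no set, with 7 of 15 against 3 of 33 in B and 3 of 8 against 3 of 17 in D.

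**Figure D4:**
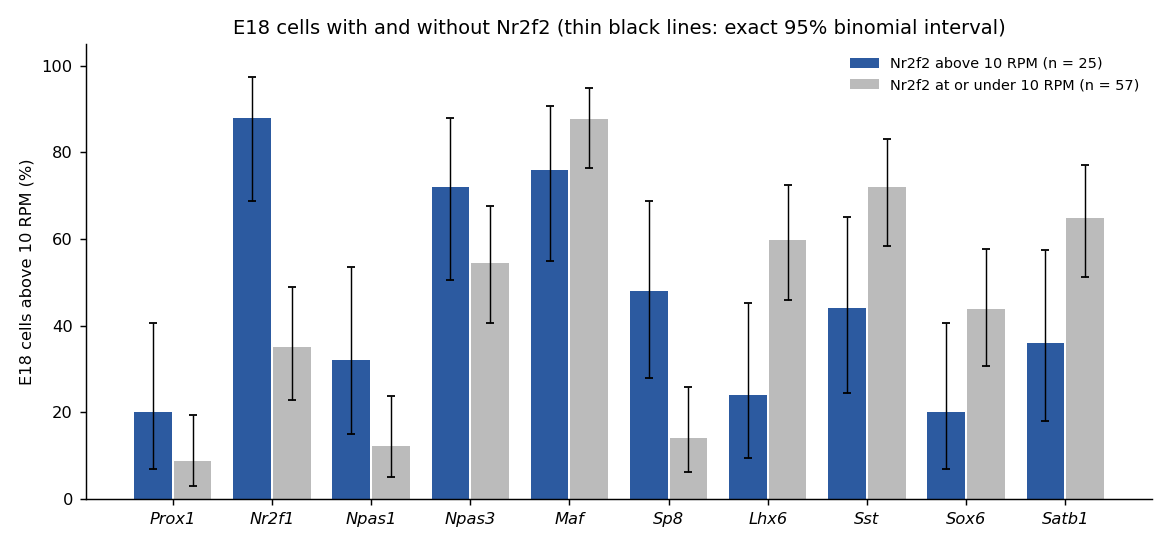
Share of E18 cells (%) above 10 RPM for the other 5 factors, Sp8 and 4 MGE transcripts, in the 25 cells with Nr2f2 (blue) and the 57 without it (grey), with exact 95% binomial intervals. Nr2f1 and Sp8 are higher in blue and Lhx6 in grey with intervals apart.

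In type 2 INs at P2, Sp8 was in 14 of 14 cells with Nr2f1 (76.8 to 100%) and in 8 of 17 without it (47.1%, 22.98 to 72.2%), the 1 of 42 comparisons in that group with intervals apart. The cells with Nr2f1 had a median of 2495.5 genes above 10 RPM and those without it 2221, and the part of this in the result was not tested.

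Type 1 INs were set against types 2 and 3 of their age, which asks how the CGE factors were divided among the types. The types were assigned from the same counts, so these differences describe the types and test nothing. At P2, 5 of 6 factors were at least 2-fold lower in type 1, where 31.9% of 8400 genes were. The median log2 fold of the 6 was -1.82, against -0.25 over all genes. The exception was Nr2f1, with a log2 fold of -0.32 and shares of 45.5% and 50%. As a mean of log2(RPM + 1) over cells Npas1 was within 2-fold as well (-0.62). At P5 all 6 were at least 2-fold lower, where 23.7% of 9675 genes were, and the median log2 fold was -2.70 against 0.04 over all genes. Within sets B and C, with 2 and 3 cells each of types 2 and 3, this count was not kept: Nr2f1 was -0.71 in set B, and in set C Prox1 was -0.13 and Npas3 4.45. In set D all 6 were at least 2-fold lower. In these pooled levels Maf had the largest difference at both ages (-3.67 and -3.12) and Nr2f1 the smallest (-0.32 and -1.42), but without the highest cells Npas1 was further apart than Maf at P5 (-4.53 and -3.22).

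In terms of cells, shares were apart from those of types 2 and 3 together for Nr2f2, Npas3 and Maf at P2. At P5 they were apart for Prox1, Nr2f2 and Maf. How many of all genes had shares apart was not counted. The median difference in share was -33.0 points for the 6 factors at P2 and -37.6 at P5. Over all genes it was -2.27 and -1.36. Npas1 had log2 folds of -1.23 and -2.86, but these compared 2 cells with 5 at P2 and 1 cell with 11 at P5. Leaving out the highest cell of each gene on both sides widened the gap for each factor but Nr2f2 at P5 (-2.87 and -2.85), and brought Npas3 at P2 from -1.33 to -2.54.

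**Figure D5:**
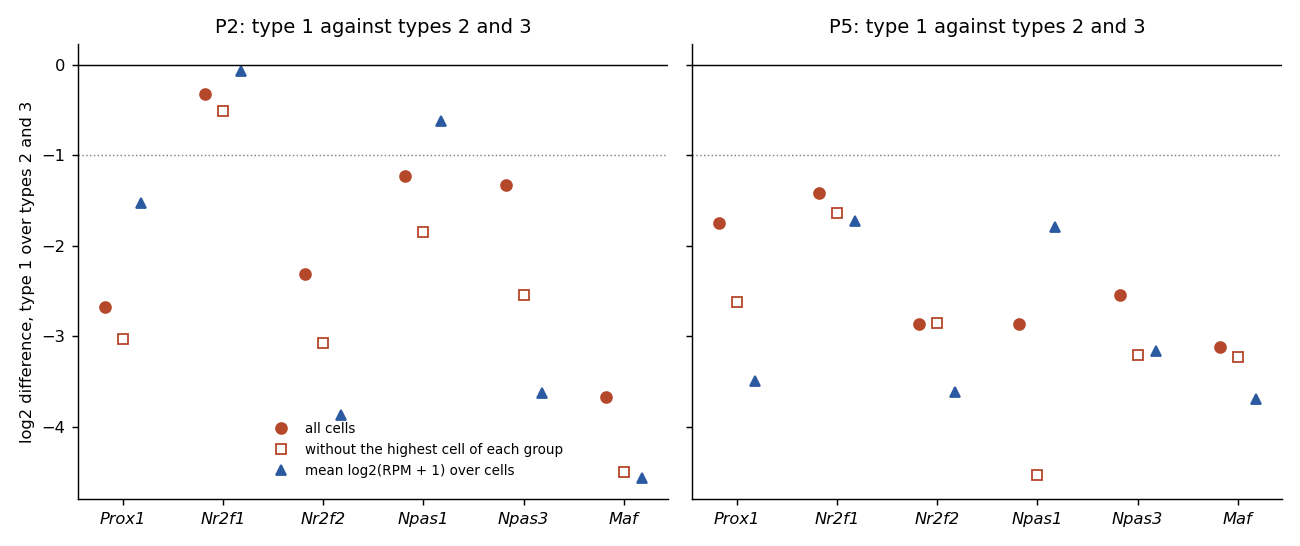
Log2 difference of type 1 over types 2 and 3 for each factor at P2 (left) and P5 (right). Circles use pooled RPM + 1, squares the same without the highest cell of each group, and triangles the mean log2(RPM + 1) over cells, with a dotted line at a 2-fold lower level. All points lie below 0, and Nr2f1 at P2 lies nearest to it.

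Types 2 and 3 were each set against the other types of their age. In type 2 at P2, Nr2f2 (log2 fold 1.62) and Maf (1.53) were at least 2-fold above the other types. That is 2 of 6 factors, near the 28.1% of genes that were. Npas1 (-1.22) was at least 2-fold lower, 1 of 6 where 19.9% of genes were. The median of the 6 factors was 0.27, against 0.19 over all genes. At P5 Maf (2.16), Prox1 (1.87) and Nr2f2 (1.03) were at least 2-fold higher in type 2. That is 3 of 6 where 23.5% of genes were, Nr2f2 being 0.73 without the highest type 2 cell. Astrocyte transcripts were also higher in this group: the 6 on that list summed to 1609 pooled RPM in P5 type 2 and to at most 210.9 in the other groups, 4 of 19 cells had at least 2 of them above 10 RPM, and Hes5 was at 0. Cells with transcripts of another cell type were then left out of all types, which left 14 type 2 and 53 other cells. Maf was then 2.53, Prox1 2.22 and Nr2f2 1.01. In type 3 at P2, Npas1 (2.68), Prox1 (1.88) and Npas3 (1.30) were at least 2-fold higher, 3 of 6 where 16.0% of genes were. Without the highest type 3 cell, however, Prox1 stood at -1.25 and Npas1 at 0.22. Npas3 was 0.30 as a mean of log2(RPM + 1) over cells, with shares of 53.8% and 54.7%. At P5 Npas1 (1.93), Npas3 (1.71), Nr2f2 (1.40) and Nr2f1 (1.18) were at least 2-fold higher, 4 of 6 where 14.7% of genes were. Without the highest type 3 cell of each it was 2 of 6, Nr2f2 at 0.97 and Nr2f1 at 0.92 being within 2-fold.

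Set directly against type 2, type 3 had a median log2 fold of the 6 factors of 0.51 at P2 and 0.39 at P5, while the median of all genes was -1.19 and -0.65. The direction was not stable: the P2 median was -0.40 without the highest cells and 0.028 as a mean over cells, and the P5 median was -0.042 in set D, which held 17 of 22 type 3 and 14 of 19 type 2 INs. In pooled RPM Npas3 (0.94 and 0.70) and Npas1 (2.61 and 0.85) were higher in type 3 at both ages. As a mean of log2(RPM + 1) over cells, Npas3 at P2 was lower in type 3 by 1.38, with shares of 53.8% and 77.4%, and Npas1 was 0.13, or 0.15 in pooled RPM without the highest type 3 cell. At P5 Prox1 (-1.32) and Maf (-1.01) were at least 2-fold lower in type 3, 2 of 6 factors where 43.2% of genes were. Without the highest cell of each side they were -1.37 and -1.11. The share of Prox1+ cells did not go with its level: it was 72.7% (49.8 to 89.3%) in type 3 and 57.9% (33.5 to 79.7%) in type 2, with medians of 70.6 and 652 RPM among the Prox1+ cells. In P5 type 3 INs a median of 32.1% of mapped pairs were counted on genes, against 55.5% in type 2, and scaling by counts on genes moved the median of all genes up by 0.75 on the log2 scale. Under that scaling the log2 folds were -0.49 for Prox1 and -0.18 for Maf.

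Against E18, the P5 types went in different directions. In type 1 INs, 4 of 6 factors were at least 2-fold lower than in E18 cells, where 28.4% of 10588 genes were: Maf (-3.35), Npas1 (-2.49), Npas3 (-2.24) and Nr2f2 (-1.51). For Nr2f2 the cells went otherwise: its share was 38.2% in type 1 and 30.5% at E18 and the mean log2(RPM + 1) over cells was higher in type 1 by 0.22. In type 2, Prox1 (2.87) and Nr2f2 (1.24) were at least 2-fold higher, 2 of 6 where 16.7% of genes were. Without the highest type 2 cell Nr2f2 was 0.94, within 2-fold. In type 3, Prox1 (1.55) and Nr2f2 (1.47) were at least 2-fold higher, 2 of 6 where 13.2% of genes were. The shares of both genes were above E18 with intervals apart, Prox1 from 12.2% to 57.9% and 72.7%, and Nr2f2 from 30.5% to 73.7% and 86.4%. By pooled RPM the other 4 factors lay within 2-fold of E18 in types 2 and 3, Maf at 0.17 and -0.84, Npas3 at -0.08 and 0.61, Nr2f1 at 0.26 and 0.81 and Npas1 at -0.10 and 0.74. As a mean over cells Nr2f1 was 1.55 and Npas1 1.20 above E18 in type 3, and scaling by counts on genes moved the median of all genes in that comparison up by 0.71. Within set D alone, type 2 stood at 2.23 (Npas1), 1.13 (Npas3), 1.21 (Maf) and 0.20 (Nr2f1), and type 3 at 2.06, 1.44, 0.74 and 1.11 in that order. The E18 cells have no type and most carried MGE transcripts, so this compares all E18 cells with 1 type.

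Relatives and partners of the factors were also counted. Of 17 such genes, 6 passed the filter on low values at each postnatal age. In type 1 against the other types, 3 were at least 2-fold lower and 1 higher at P2 (median -0.39), where 31.9% of genes were lower and 19.4% higher. At P5, 1 was lower and 4 higher (median 1.11), where 23.7% and 23.6% of genes were. Bcl11a, a zinc finger protein that binds COUP-TF proteins, had 170.1 RPM at E18, 85.1, 76.5 and 42.6 RPM in types 1, 2 and 3 at P2 and 396, 112.1 and 66.3 RPM at P5. Arnt2, a PAS partner protein, had 202.7 RPM at E18, 246.8, 202.6 and 199.4 RPM at P2 and 51.2, 192.6 and 65.3 RPM at P5. Mafg, a small Maf protein, had 163.1 RPM at E18, 12.7, 30.04 and 19.2 RPM at P2 and 147.98, 93.8 and 46.1 RPM at P5. In pooled RPM, type 1 against the other types thus differed in sign between the ages for Arnt2 (0.29 and -1.34) and Mafg (-1.07 and 1.06). The higher pooled levels did not go with higher shares of cells. Arnt2 was above 10 RPM in 27.3, 61.3 and 46.2% of types 1, 2 and 3 at P2 and in 35.3, 68.4 and 31.8% at P5. Mafg was in 13.6, 19.4 and 23.1% at P2 and in 32.4, 36.8 and 31.8% at P5.

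Other gene lists were counted in type 1 INs in the same way. Of 7 factors of olfactory bulb and lateral eminence INs, 6 were at least 2-fold higher in type 1 at P2 and 7 at P5, with medians of 3.30 and 2.34 against -1.82 and -2.70 for the 6 CGE factors. Of 9 CGE subtype genes that passed the filter at P2, 6 were at least 2-fold lower in type 1 and 0 higher, and of 11 at P5, 6 were lower and 1 higher. Of the MGE transcripts, 4 passed the filter at P2 and all 4 were lower (median -3.18), and 1 passed at P5 and was higher (1.47). Of 11 further IN factors, 5 were higher and 1 lower at P2 and 6 higher and 0 lower at P5, and this list shares Sp8 and Tshz1 with that of the olfactory bulb. Of all genes, 19.4% were higher and 31.9% lower in type 1 at P2, and 23.6% and 23.7% at P5.

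Within types 2 and 3, subtype transcripts were compared between cells with and without each factor. Among 378 comparisons of 9 transcripts, 6 factors and 7 overlapping sets of cells, 1 had intervals apart. Cxcl14, a chemokine that later marks a part of the CGE-derived INs, was above 10 RPM in 19 of 50 type 2 and 3 INs with Nr2f1 (38%, 24.7 to 52.8%) and in 2 of 35 without it (5.71%, 0.6997 to 19.2%) over both ages. At P2 it was in 7 of 22 cells with Nr2f1 and 0 of 22 without (up to 13.6%), and in set D at P5 in 8 of 21 and 2 of 10 cells. Cells with and without Nr2f1 had medians of 2236.5 and 2195 genes above 10 RPM.

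The genes most like each factor were found by Pearson correlation of log2(RPM + 1) over all postnatal cells among 6337 genes, which share libraries, depth and the differences between types. They were Cnr1 (r = 0.53), Npas3 (0.43) and Fam3c (0.39) for Nr2f2, and Cnr1 (0.49), Nr2f2 (0.43) and Camk2d (0.39) for Npas3. Cnr1 encodes the CB1 cannabinoid receptor and had 3177 and 3737 pooled RPM in type 2 at P2 and P5, 781 and 1519 in type 3 and 503 and 291 in type 1, so that in P2 type 3 it was nearer to type 1 than to type 2. For Maf they were Rph3a (0.49), Chl1 (0.46) and Ptprd (0.43), for Prox1 Sema3c (0.42), Kif21a (0.38) and Ryr2 (0.38), for Npas1 Chrm3 (0.42), Lingo2 (0.41) and Gm37899 (0.38), and for Nr2f1 Efr3b (0.37), Gm37601 (0.32) and Adarb2 (0.32). Among the 6 factors r was highest for Nr2f2 with Npas3 (0.43), Nr2f2 with Prox1 (0.38) and Npas3 with Maf (0.37), and lowest for Nr2f1 with Prox1 (0.09) and Npas1 with Maf (0.09).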

How the data were processed

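Single Htr3a-GFP+ cells were captured on Fluidigm C1 chips, amplified with SMARTer and sequenced as pairs of 50 bases. The authors aligned reads to GRCm38 (Ensembl 78) with TopHat 2.0.12, counted them with HTSeq 0.6.1 and deposited raw counts per gene, with no molecular identifiers, so amplified copies are not independent. RPM here is the count times the coefficient given with each cell, the inverse of its mapped pairs. Types 1 to 3 are the deposited labels, which the authors derived from these counts. Of 43629 gene IDs, 42462 were named. Annotation was GENCODE vM21 on the same build. A fold compares pooled RPM of groups on the log2 scale after adding 1 RPM to each. A background percentage is the share of genes at least 2-fold different in the direction given, out of those that over 5% of an age's cells held past 10 RPM. Intervals are exact (Poisson for levels, Clopper-Pearson for shares, 95%). The fold calculation was tested on simulated data.

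The 6 factors and the gene lists were chosen with earlier results of these data known. Named genes were the factors, the 3 genes most correlated with each (of those above 10 RPM in at least 10% of postnatal cells) and up to 4 genes per list with the highest level; Lhx6, Sp8 and Cxcl14 were named after their values were seen. Alternatives were 3 other thresholds, thinning to 3707601 pairs, scaling by counts on genes, by edgeR 4.0.16 TMM factors and by DESeq2 1.42.0 size factors of pooled counts, pseudocounts of 0.1 and 10 RPM, means over cells, and leaving out the highest cells, library sets or cells with transcripts of other types. The E18 and Cxcl14 comparisons within subsets, and types 2 and 3 without cells that had transcripts of other types, were added after seeing the data. Protein sequences were not used here, and 1 gene of the lists is not reported here. Python 3.11.15 and R 4.3.3 were used.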

Additional observations from a re-analysis of the deposited data

Results flagged for a closer look

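Between types 3 and 2, 4 of the 6 factors had log2 folds of opposite sign at P2 and P5. Each age came from pooled animals with no replicate, and the difference between the ages was not tested. Prox1 was 1.29 at P2 and -1.32 at P5, and the P2 value was -0.94 without the highest cell of each side. Maf was 0.074 and -1.01, Nr2f2 -0.54 and 0.23, and Nr2f1 -0.046 and 0.55. Without the highest cells Nr2f1 was -0.74 and 0.62, Nr2f2 -0.47 and 0.093, and Maf -0.32 and -1.11. As means of log2(RPM + 1) over cells none of the 4 turned between the ages: Prox1 was -0.028 and -0.22, Nr2f1 0.77 and 0.92, Nr2f2 0.084 and 0.79, and Maf -0.47 and -1.32.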

How the results depend on the processing

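No paired analysis was possible because cells of an age came from pooled animals and no test was made. The values are median log2 folds of the 6 factors, in the order type 1 against the other types at P2 and P5 (-1.82 and -2.70 as reported), type 3 against type 2 at P2 and P5 (0.51 and 0.39), and P5 types 1, 2 and 3 against E18 (-1.88, 0.22 and 0.78). Of 78 alternative values 74 kept the direction, and counting intervals were so narrow that 66 lay outside them. Thinned to the shallowest cell, the values were -1.93, -2.81, 0.47, 0.28, -2.02, 0.28 and 0.72. Scaled by counts on genes they were -1.76, -2.91, 0.76, 1.22, -1.78, 0.18 and 1.56, by TMM -1.68, -2.80, 1.15, 0.80, -1.62, 0.38 and 1.35, and by DESeq2 size factors -1.66, -2.83, 1.49, 0.71, -1.52, 0.55 and 1.42. These scalings moved the median of all genes by up to 0.85, and the factors minus that median by less, at most from 1.70 to 1.83 for type 3 against type 2 at P2. With means of log2(RPM + 1) over cells they were -2.58, -3.33, 0.028, 0.47, -0.84, 0.73 and 1.38. Adding 10 RPM gave -1.67 and -1.98 for type 1 against the other types, and -1.29 and 0.67 for types 1 and 3 against E18. Without the highest cell of each gene and group, the values were -2.78 and -3.03 for type 1, -0.40 for type 3 against type 2 at P2, and -2.19, 0.069 and 0.82 against E18. Without cells that had transcripts of another cell type they were -1.76 and -2.62 for type 1, 0.25 for type 3 against type 2 at P5, and -2.01, 0.31 and 0.50 against E18. At P5, sets B, C and D gave -3.15, -2.16 and -2.49 for type 1, 1.71, 1.06 and -0.042 for type 3 against type 2, -2.29, -2.19 and -1.15 for type 1 against E18, -0.60, -0.18 and 1.27 for type 2 and 1.17, 0.31 and 1.43 for type 3, with 2 or 3 cells of types 2 and 3 in sets B and C.

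Of 468 values of single factors 430 kept the direction. Of those at least 2-fold different as reported, Prox1 of type 3 against type 2 at P2 turned from 1.29 to -0.028 as a mean over cells and to -0.94 without the highest cells, and at P5 from -1.32 to 7.72 in set B and 1.27 in set C. Npas3 of type 1 at P5 turned to 4.45 in set C. Against E18, Nr2f2 turned to 0.22 in type 1 as a mean over cells, to -1.04 in type 2 in set C and to -0.18 in type 3 in set C, and Prox1 of type 2 to -5.09 in set B. Among smaller differences, Npas3 of type 3 against type 2 at P2 turned from 0.94 to -1.38 as a mean over cells. In sets B or C, Nr2f1 of type 3 turned from 0.55 to -3.47 against type 2 at P5 and from 0.81 to -3.29 against E18, Npas3 of type 3 from 0.61 to -4.71 against E18, and Prox1 of type 1 from 0.62 to -3.10. Npas3 of type 2 against E18 ran from -7.002 in set C to 1.13 in set D. The cause was not tested.

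The share of cells with at least 4 factors was 70.97% in P2 type 2 and 29.4% in P5 type 1 at 1 RPM. At 50 RPM it was 12.2% at E18, 12.9% and 15.4% in P2 types 2 and 3, and 0% (up to 8.82%) and 36.4% in P5 types 1 and 3. With 1 read pair it was 75.6% at E18, 45.5, 83.9 and 84.6% in P2 types 1 to 3, and 61.8, 89.5 and 100% at P5. By set, P5 type 1 had 0, 0 and 33.3% in B, C and D, P5 type 2 0% of 2 cells in B and P5 type 3 33.3% of 3 cells in C.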
